A study of Homo sapiens with 6 samples.

Results

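The signal recognition particle and its receptor are represented here by the mRNAs of 8 genes, chosen by gene symbol: the receptor subunits SRPRA (listed under its older symbol SRPR) and SRPRB, and the particle proteins SRP9, SRP14, SRP19, SRP54, SRP68 and SRP72. Of these, 7 had at least 1 site among the 8196 genes with a site in any library, and SRP19 had none. The measurements are the RNA fragments that stay attached to AEG-1, an endoplasmic reticulum (ER) membrane protein encoded by MTDH, after UV crosslinking and precipitation (CLIP). All 6 libraries came from AEG-1-14, a line derived from HepG3, which is labelled a hepatoblastoma line, that stably expresses AEG-1 carrying an HA tag at its C-terminus. HITS-CLIP was made with UV at 254 nm and gave 2 AEG1 libraries and 2 negative controls. PAR-CLIP was made with UV at 365 nm and gave 1 AEG1 library and 1 negative control. The controls came from the same line and received no UV, so they still contain the tagged protein. The bait is the stably expressed tagged protein, and no untagged line was analysed here.

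The signal recognition particle is a complex of proteins with a small noncoding RNA that binds the signal sequence of a secretory or membrane protein as it leaves the ribosome. It slows translation and brings the ribosome to its receptor on the ER, where both release the nascent chain into the translocon after GTP hydrolysis. The particle proteins work in the cytosol. The receptor is a membrane complex, in which SRPRB spans the membrane and holds SRPRA, the GTPase that docks the particle. The comparison made here is therefore between mRNAs of the same pathway whose proteins end up at the ER membrane or in the cytosol. The particle's own RNA was not analysed here, because the files list mRNAs.

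The site lists differ greatly in size, which bears on every count below. HITS-CLIP AEG1 replicates 1 and 2 listed 6378 and 5651 sites, against 60 and 90 in the HITS-CLIP controls, and PAR-CLIP AEG1 listed 60085, against 121 in its control. Read depth is unknown, since the files give called sites with a log2 score and no read counts. The labels leave unsaid whether replicates are separate cultures, and the spread between them can be purely technical. All of 8 hepatocyte or hepatoblast marker genes were covered in each of the 3 AEG1 libraries, while none of 3 endothelial and 3 connective tissue markers was covered in any. Of 5 leukocyte markers, 1 had sites in both HITS-CLIP AEG1 replicates and 2 in PAR-CLIP AEG1, with 9, 6 and 13 sites in all. The hepatocyte markers also held 12, 11 and 18 sites in the unirradiated libraries (both HITS-CLIP controls, then PAR-CLIP).

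Both receptor mRNAs carried sites in each HITS-CLIP AEG1 library, and no particle mRNA carried sites in both. Of all 20056 protein-coding genes, 6.57% had sites in both. Among genes with as much PAR-CLIP cover as the receptor this share was 44.8%. Among genes with as much as the particle mRNAs with sites it was 17.6%. Receptor sites numbered 8 and 5 in HITS-CLIP AEG1 replicates 1 and 2, against 0 and 0 in the HITS-CLIP controls. Particle sites numbered 1 and 1 in HITS-CLIP AEG1, against 0 and 0 in the controls. The averages were 6.5 ± 2.12 receptor sites (SD, n = 2) and 1 ± 0 particle sites in HITS-CLIP AEG1. With 2 libraries on each side, an exact two-sided permutation test gave p = 0.333 for either sum, the smallest p this design allows. The receptor had on average 4 and 2.5 sites per gene and the particle 0.167 in each AEG1 library. That difference of 3.83 and 2.33 sites per gene was 0 in the controls (mean 3.08 ± 1.06, SD, n = 2; exact permutation p = 0.333).

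**Figure D1:**
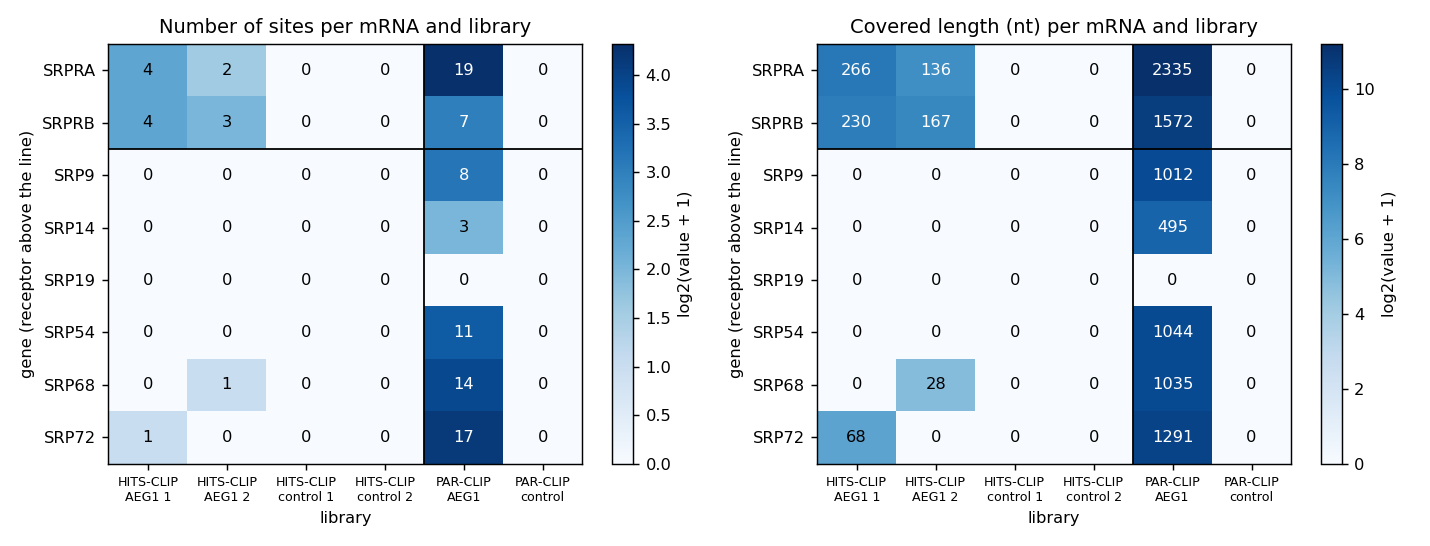
Number of sites (left) and covered length in nt (right) for each mRNA (down) in each library (across), with the color on a log2(value + 1) scale. The receptor mRNAs held 2 to 4 HITS-CLIP AEG1 sites each, SRP68 and SRP72 held 1 site in 1 library each, and every control entry is 0.

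The absence of member sites from the controls says little, because the control lists are short. Receptor sites made up 0.125% of HITS-CLIP AEG1 replicate 1 sites (exact binomial 95% interval 0.0542 to 0.247) and 0.0885% of replicate 2 sites (0.0287 to 0.206). A count of 0 among 60 and 90 sites allows shares of up to 5.00% and 3.33% for HITS-CLIP without UV, and 0 of 121 allows up to 2.48% in the PAR-CLIP control (3 counts of the total). A difference in share between AEG1 and control libraries was therefore not detectable at this depth. These intervals and limits cover counting error alone. Over all protein-coding genes of the RefSeq table, 0.718% had a site in any control.

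Summed over genes, receptor sites outnumbered particle sites in both HITS-CLIP AEG1 libraries, and particle sites outnumbered receptor sites in PAR-CLIP AEG1. These sums set 2 receptor genes against 6 particle genes. Per gene, the receptor had more sites in PAR-CLIP AEG1 as well, 13 against 8.83. The receptor held 8 of 9 member sites in HITS-CLIP replicate 1 (88.9%, exact interval 51.8 to 99.7) and 5 of 6 in replicate 2 (83.3%, 35.9 to 99.6). In PAR-CLIP AEG1 it held 26 of 79 (32.9%, 22.7 to 44.4), and the particle held the other 53. The interval of replicate 1 lies above that of PAR-CLIP, whereas that of replicate 2 overlaps it. Sites on 1 mRNA share their source, so these intervals understate the error, and no test was made between the methods, which have 2 libraries and 1.

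SRPRA, the docking GTPase, had its HITS-CLIP sites in the first part of its mRNA. Positions are counted in nt from the first base of the RefSeq mRNA, whose coding and untranslated parts were not analysed here. In replicate 1 the 4 sites lay at nt 392 to 462 (score 4.64), nt 761 to 814 (4.55), nt 1022 to 1095 (5.05) and nt 1187 to 1253 (4.05). In replicate 2 the 2 sites lay at nt 401 to 464 (score 5.05) and nt 1185 to 1256 (5.37). The first and the last site of replicate 1 thus recurred in replicate 2, and the middle pair did not. In PAR-CLIP AEG1 the same mRNA held 19 sites from nt 179 to nt 2985, with 2335 nt covered, against 266 and 136 nt in HITS-CLIP. The PAR-CLIP site with the highest score, 8.37, spanned nt 897 to 1320 and contained the replicate 1 sites at nt 1022 and nt 1187 and the replicate 2 site at nt 1185. The site at nt 345 to 471, which shared the next highest score of 6.86 with 2 others, contained the recurrent upstream HITS-CLIP site. A further 13 of the 19 PAR-CLIP sites lay past the last HITS-CLIP site of either replicate. The lowest score on SRPRA was 3.05, at a PAR-CLIP site. In linear terms (2 to the power of the score), the HITS-CLIP sites stood at 2 to 5.01 times that site. The highest PAR-CLIP site stood at 40.1 times.

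SRPRB, the membrane-spanning subunit, showed 3 places that recurred in HITS-CLIP. Replicate 1 had sites at nt 499 to 533 (score 8.60), nt 735 to 772 (6.79), nt 774 to 801 (5.71) and nt 1003 to 1131 (10.04). Replicate 2 had sites at nt 518 to 569 (score 8.03), nt 742 to 769 (8.12) and nt 1002 to 1088 (9.96). The site starting at nt 1003 or nt 1002 had the highest score of SRPRB in each replicate, and its start differed by 1 nt. In PAR-CLIP AEG1 the mRNA held 7 sites, with 1572 nt covered, against 230 and 167 nt in HITS-CLIP. The widest, nt 341 to 824 at the highest score of 12.04, contained all HITS-CLIP sites of the first 2 places. The next, nt 832 to 1254 at 11.04, contained the site near nt 1002. The remaining 5 PAR-CLIP sites, of which 4 lay past the last HITS-CLIP site, overlapped none.

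**Figure D2:**
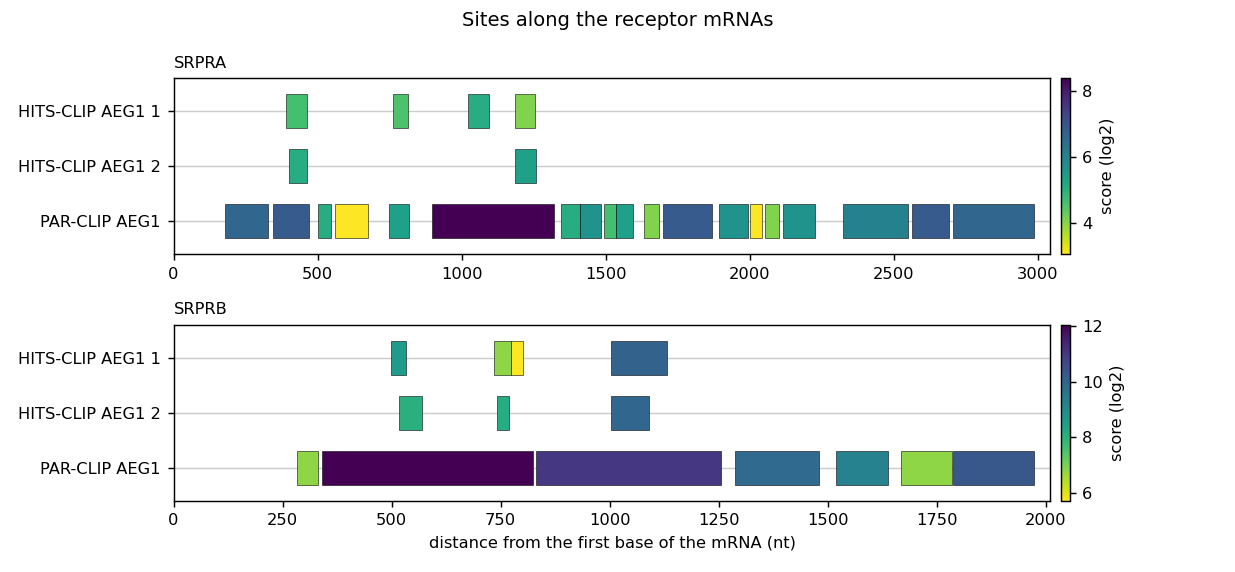
Sites along the SRPRA (top) and SRPRB (bottom) mRNAs, with distance from the first base in nt on the horizontal axis, 1 row per AEG1 library and color for the authors' log2 score on that mRNA's own scale. HITS-CLIP sites end at nt 1256 on SRPRA and nt 1131 on SRPRB, while PAR-CLIP sites continue to nt 2985 and nt 1971.

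Most receptor sites of each replicate overlapped one of the other. All 5 replicate 2 sites shared 1 nt or more with a replicate 1 site, and 5 of 8 replicate 1 sites overlapped a replicate 2 site (62.5%, exact interval 24.5 to 91.5). Over all genes these shares were 71.3% and 63.2%. With an overlap of at least 50% of each site, 4 of 5 and 4 of 8 receptor sites matched, against 55.5% and 49.2% of all sites. Every one of the 13 HITS-CLIP receptor sites overlapped a PAR-CLIP site, as did 90.2% and 90.4% of all HITS-CLIP sites in replicates 1 and 2, and PAR-CLIP sites take up most of these mRNAs. In turn, 5 of the 26 PAR-CLIP receptor sites overlapped a HITS-CLIP site, against 7.50% of all PAR-CLIP sites. The latter include sites on genes without any HITS-CLIP site, where no overlap is possible, so these shares are not of like genes. The last HITS-CLIP end stood at 42.0% and 42.1% of the furthest site end on SRPRA, and at 57.4% and 55.2% on SRPRB, in replicates 1 and 2. The medians over the 1243 genes with sites in both HITS-CLIP replicates and in PAR-CLIP were 62.9% and 61.0%. Both receptor mRNAs were therefore below the median, SRPRA by more than SRPRB, and this position was not tested.

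The summed score of HITS-CLIP sites was below that of PAR-CLIP sites on both receptor mRNAs, and relative to PAR-CLIP it was lower on SRPRA than on SRPRB. Because scores of different mRNAs may not share a scale, the score of each site was made linear (2 to the power of the score), summed per mRNA and library, and divided by the PAR-CLIP sum of the same mRNA. Any constant of the mRNA cancels in this ratio, and any scaling of a library would move all genes alike. For SRPRA the ratio was 7.44% and 5.66% in replicates 1 and 2, and for SRPRB it was 17.1% and 16.4%. The replicate means were 6.55% ± 1.26 for SRPRA and 16.8% ± 0.513 for SRPRB (SD, n = 2). Over the same 1243 genes the median was 18.5%, with 25th and 75th percentiles of 8.82% and 42.8%. SRPRA was thus below the 25th percentile, with 18.3% of genes below it, and SRPRB near the middle, with 46.4% below it. The summed linear score per covered nt was 0.369 and 0.549 in HITS-CLIP against 0.565 in PAR-CLIP for SRPRA, and 6.98 and 9.21 against 5.96 for SRPRB. Each sum runs over the called sites only, and these covered 266 and 136 nt in HITS-CLIP against 2335 nt in PAR-CLIP on SRPRA. The ratio is therefore not a measure of the amount recovered per site. How far the sums follow covered length was not tested.

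**Figure D3:**
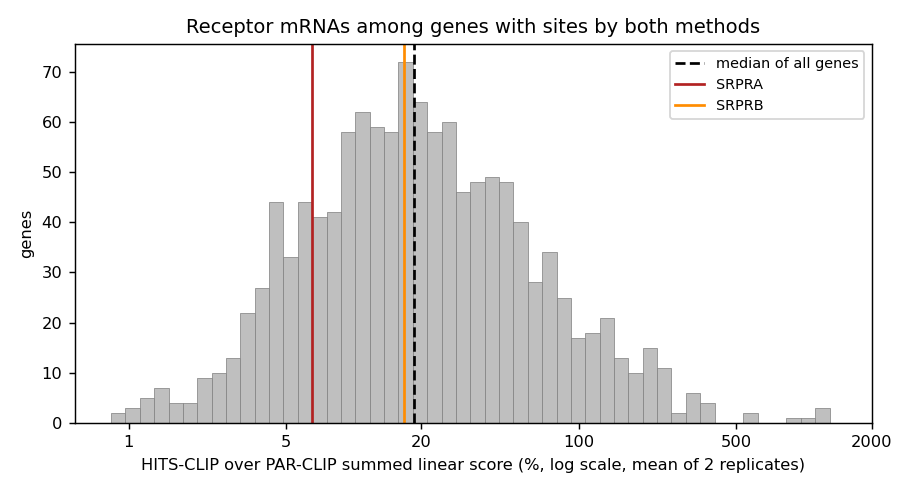
Histogram of the HITS-CLIP over PAR-CLIP summed linear score (percent, log scale, mean of 2 replicates) for the 1243 genes with sites in all 3 AEG1 libraries. SRPRA, at 6.55%, stands left of the median of 18.5% (dashed), and SRPRB, at 16.8%, stands close to it.

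SRP9 and SRP14 form the heterodimer that binds the Alu end of the particle's RNA and slows elongation, and neither had a HITS-CLIP site. In PAR-CLIP AEG1, SRP9 held 8 sites over 1012 nt. Its highest scores were 7.85 at nt 1182 to 1354 and 7.35 at nt 30 to 352, against 3.76 at its lowest site. SRP14 held 3 sites over 495 nt, at nt 67 to 319 (score 2.52), nt 326 to 380 (-0.80) and nt 582 to 768 (2.90). The RefSeq table lists 1 pseudogene named for SRP9 and 5 for SRP14, so fragments of these mRNAs may have been placed on more than 1 copy, and their values are uncertain.

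Of the proteins at the other end of the particle, SRP54, the GTPase that binds the signal sequence, also had no HITS-CLIP site. SRP54 held 11 PAR-CLIP sites over 1044 nt, spread from nt 212 to nt 2124, with scores of 2.28 to 3.95. The highest score was shared by nt 574 to 701 and nt 1412 to 1729, so the range on this mRNA was narrow. SRP19, which helps assemble the particle on its RNA, had no site in any of the 6 libraries.

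SRP68 and SRP72, partners in the heterodimer that binds the particle's RNA, each had a single HITS-CLIP site in a single library. The SRP68 site lay at nt 60 to 87 in replicate 2, was 28 nt wide, and no PAR-CLIP site overlapped it. Its score of 3.33 was near the lowest on that mRNA, 3.25 in PAR-CLIP. The 14 PAR-CLIP sites of SRP68 covered 1035 nt, began at nt 352 and reached a score of 6.65 at nt 911 to 1056. The SRP72 site lay at nt 630 to 697 in replicate 1, was 68 nt wide and had a score of 5.67. It overlapped a PAR-CLIP site at nt 631 to 720 with a score of 5.26. SRP72 held 17 PAR-CLIP sites over 1291 nt, with the highest score, 6.84, at nt 364 to 463. In the libraries with a site, the HITS-CLIP over PAR-CLIP ratio was 2.57% for SRP68 and 6.06% for SRP72. The SRP72 value lay between the 7.44% and 5.66% of SRPRA in replicates 1 and 2, and the SRP68 value lay below both. The RefSeq table lists 3 pseudogenes named for SRP68 and 2 for SRP72, which makes these values uncertain too.

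**Figure D4:**
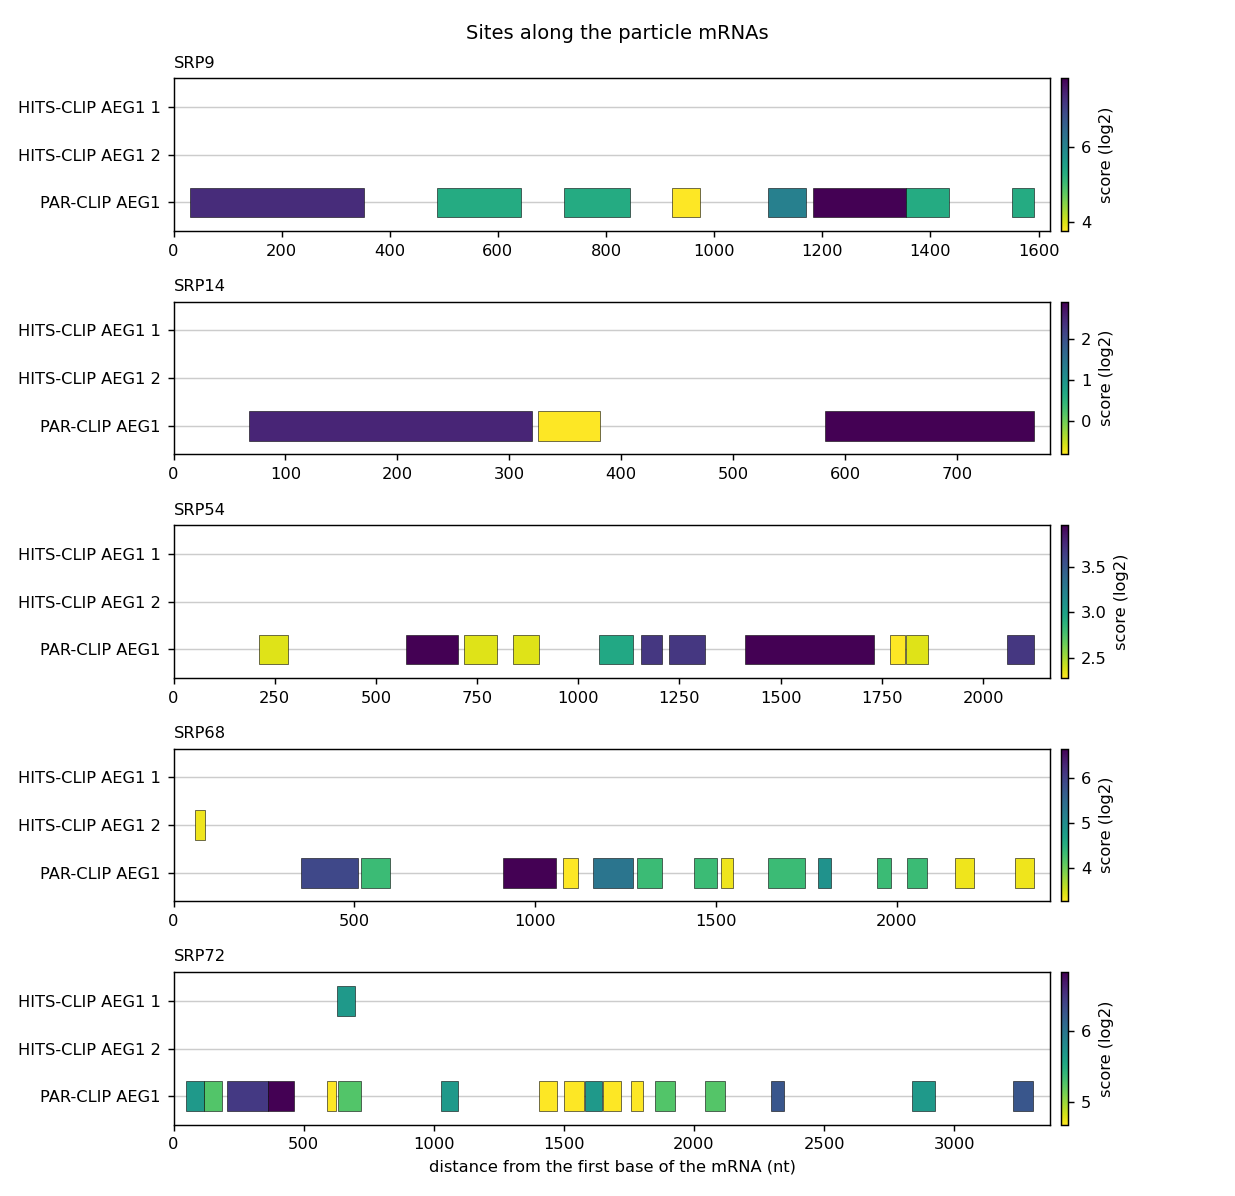
Sites along the 5 particle mRNAs with sites, with distance from the first base in nt on the horizontal axis, 1 row per AEG1 library and color for the log2 score on that mRNA's own scale. HITS-CLIP rows are empty except for 1 site at nt 60 on SRP68 and 1 site at nt 630 on SRP72, while PAR-CLIP rows hold 3 to 17 sites.

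PAR-CLIP covered more of the receptor mRNAs than of the particle mRNAs, at a similar mean number of sites per length. The receptor averaged 13 sites and 1953.5 covered nt per gene, against 8.83 sites and 812.8 covered nt for the particle with SRP19 counted as 0. Per 1000 nt of the furthest site end, however, the receptor averaged 4.96 sites and the 5 particle mRNAs with sites 5.03. That receptor mean joins 6.37 on SRPRA, above every particle mRNA, and 3.55 on SRPRB, below every one (3.91 to 5.89). Covered length made up 78.2% and 79.8% of the furthest site end on SRPRA and SRPRB. On SRP9, SRP14, SRP54, SRP68 and SRP72 it made up 63.6%, 64.5%, 49.2%, 43.5% and 39.1%, so the receptor lay above every particle mRNA. Among 8001 genes with a PAR-CLIP site the median was 22.5%, and 5.96% and 5.26% of genes reached the level of SRPRA and SRPRB. The furthest end comes from the same sites, and PAR-CLIP AEG1 is a single library, so this carries no test.

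Genes with more PAR-CLIP cover more often had HITS-CLIP sites, which sets the background for the members. With the 7975 protein-coding genes that had a PAR-CLIP site split by covered length into 5 equal groups, the share with a site in both HITS-CLIP AEG1 libraries was 4.45%, 4.45%, 8.97%, 17.2% and 42.8%, from the least covered to the most. Of all 20056 protein-coding genes, 39.8% had a PAR-CLIP AEG1 site and 6.57% had a site in both HITS-CLIP AEG1 libraries. Of genes with a PAR-CLIP site, 15.6% had a site in both HITS-CLIP libraries. Among the 524 genes with 1572 to 2335 nt covered in PAR-CLIP, the range of the receptor, this share was 44.8%, and 2 of 2 receptor genes met it. Among the 2267 genes with 495 to 1291 nt covered, the range of the 5 particle mRNAs with sites, it was 17.6%, and 0 of 5 met it. By number of PAR-CLIP sites, the shares were 22.0% for 7 to 19 sites, as on the receptor, and 16.6% for 3 to 17 sites, as on the particle. At these backgrounds, a count of 0 among 5 genes is not a result about the particle, and 2 of 2 is not a result about the receptor. Fewer copies of an mRNA and fewer contacts per copy cannot be told apart, because mRNA levels were not analysed here.

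Other mRNAs of ER targeting and translocation were counted by where their protein ends up. Of 25 mRNAs of membrane or ER lumen proteins, 14 had a site in both HITS-CLIP AEG1 libraries, with medians of 3 and 2 sites. Of 8 mRNAs of soluble cytosolic proteins, 1 did, with medians of 0 and 0. In either library, 16 of 25 and 3 of 8 had a site, a share that was not counted over all genes. Replicates 1 and 2 had sites on 1858 and 1698 of the 20056 protein-coding genes. In PAR-CLIP the same lists had sites on 25 of 25 and 6 of 8 genes, with medians of 7 and 3.5 sites. The median covered length in PAR-CLIP also differed, at 1032 and 461.5 nt, and its part in the HITS-CLIP counts was not tested. No gene of either list had a site in a control. The lists were written with earlier results of these data known, and the background of 6.57% and 15.6% above applies, so no test was made.

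Among the listed mRNAs of membrane or ER lumen proteins, SEC61A1, the pore of the translocon, held 15 and 17 HITS-CLIP sites and 10 in PAR-CLIP. TRAM1, which contacts the incoming chain, held 8 and 8 HITS-CLIP sites and SSR1, a translocon-associated subunit, 7 and 7. HSPA5, the lumenal chaperone BiP, held 15 and 18. RRBP1 and CKAP4, proteins of ribosome-bound ER, held 11 and 18 and 12 and 8 sites. These 6 were the highest of the lists, and the numbers are not divided by length. SSR2, SSR3, SSR4, SEC62, SEC63, SPCS2 and SEC11A held 3 to 5 sites in replicate 1 and 2 to 4 in replicate 2, beside 4 and 2 on SRPRA and 4 and 3 on SRPRB. SEC11C held 1 and 1, and SPCS3 and LRRC59 held 1 and 0 each, the LRRC59 site being 23 nt wide. The 9 mRNAs of this group without a HITS-CLIP site in either replicate included SEC61B, SEC61G, GET1, CAMLG and TMEM208. Their covered length in PAR-CLIP was 220 to 515 nt, except for KTN1 with 1150 nt.

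Among the soluble factors, BTF3, a partner of the nascent chain at the ribosome exit, was the 1 gene with sites in both replicates, 2 and 1. Its replicate 2 site was 21 nt wide, under the limit of 25 nt for short sites. The median site width in each HITS-CLIP control was also 21 nt, and the count of 1 gene rests on this site. BAG6 and GET4, soluble factors in the targeting of tail-anchored proteins, held 1 and 0 sites each. BAG6 had 2043 nt covered in PAR-CLIP, within the range of the receptor. SGTA, with 1024 nt, had no HITS-CLIP site. NACA and NACAD had no site in any library.

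**Figure D5:**
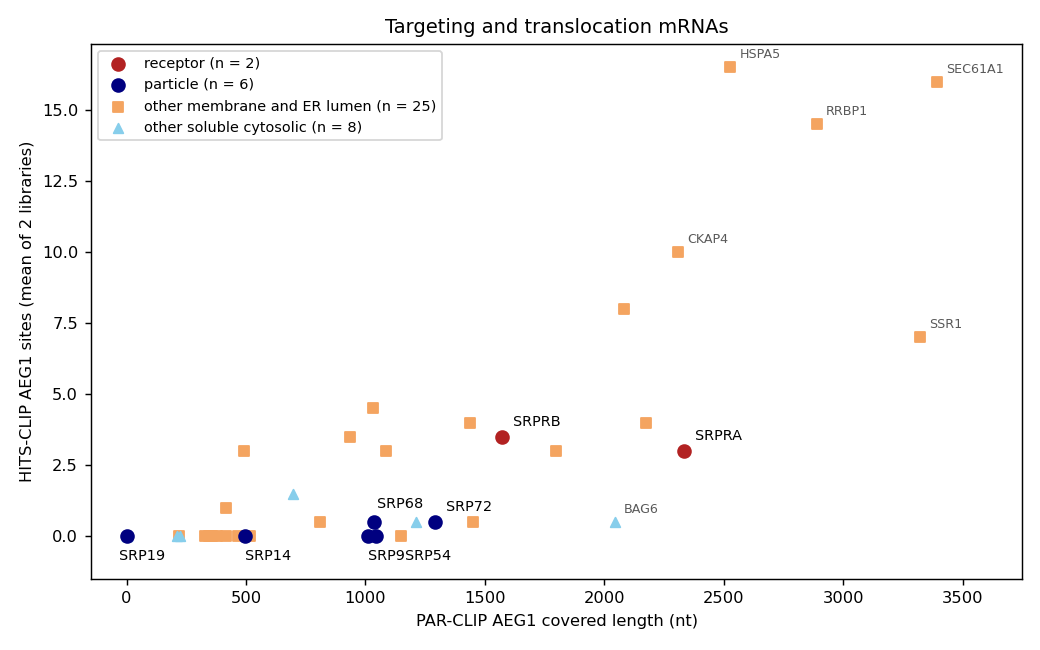
HITS-CLIP AEG1 sites (mean of 2 libraries, vertical axis) against covered length in PAR-CLIP AEG1 (nt, horizontal axis) for the receptor, the particle and 33 other targeting and translocation mRNAs. SRPRA and SRPRB stand at 3 and 3.5 sites, above all particle mRNAs, while BAG6 has 0.5 sites at 2043 nt and SEC61A1 has 16 at 3394 nt.

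The mRNAs with the covered lengths most like those of the members over the 6 libraries were found by the Euclidean distance of log2(covered nt + 1). For SRPRA they were SQSTM1 (distance 0.09), ST14 (0.33) and ERBB2 (0.35). SQSTM1 held 4 and 2 HITS-CLIP sites over 250 and 134 nt and 2328 covered nt in PAR-CLIP. Its covered lengths were close to those of SRPRA, as the distance selects for, but it held 10 PAR-CLIP sites against 19 on SRPRA. For SRPRB they were SPPL2A (0.19), HACL2 (0.22) and CPT1A (0.25), each with 4 and 3 HITS-CLIP sites. For SRP68 they were NHERF1 (0.12), ADAM17 (0.12) and HNRNPA0 (0.16), each with 1 HITS-CLIP site in replicate 2. For SRP72 they were TMEM185B (0.0045), MFSD1 (0.11) and VWCE (0.13), each with 1 site in replicate 1. None of these 12 mRNAs had a site in a control, and the controls therefore added nothing to the distances.

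On the number of sites alone, the receptor was not extreme in HITS-CLIP. Among the 1860 genes with a site in replicate 1, 26.0% held at least the 4 sites of SRPRA and of SRPRB. Among the 1701 genes of replicate 2, 46.3% held at least the 2 sites of SRPRA and 32.1% at least the 3 of SRPRB. In PAR-CLIP, SRPRA ranked higher, with 8.10% of genes at or above its 19 sites, and SRP72 followed with 10.1% at or above its 17. In the RefSeq annotation the SRPRB gene overlaps the genes of TF, an abundant plasma protein, RAB6B and the noncoding LOC105374116. The SRPRA gene overlaps FAM118B and RN7SL351P, a pseudogene named for the particle's RNA. The TF mRNA held 10 and 11 HITS-CLIP sites and 3 PAR-CLIP sites, and the other 4 had no site listed. Whether any exon is shared was not tested.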

How the data were processed

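Per the labels' protocols, lysates were treated with RNase I, AEG-1 was pulled down through its HA tag, and the attached RNA was sequenced in 50 nt single reads. The submitters' processing notes name Bowtie. How the authors called sites and used controls is not given in the sources used. The deposited score per site behaves as a log2 value, and its normalization is not stated. Of the 15 HITS-CLIP sites on members, 7 had a score within 0.001 of that of a PAR-CLIP site on the same mRNA.

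Site starts were taken as 0-based (1168 neighbouring sites start at the previous end and none overlap) and are printed 1-based. Symbols were updated from a RefSeq table (GRCh38.p14): of 8204 mRNAs, 8146 matched by accession, 30 by symbol, 21 by synonym and 7 not at all. No sequences of the sites were used here.

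The members, lists and tests were chosen with earlier results of these data known. Genes named are all members, genes of the fixed pathway lists and the 3 most like mRNAs for each member with a HITS-CLIP site. Overlap means at least 1 nt. Permutation tests over libraries were exact and two-sided, and shares carry Clopper-Pearson 95% intervals. Helper functions were tested on simulated sites. Alternatives covered short and low-scoring sites, covered length, single libraries, pairing and stricter overlap. Python 3.11.15, pandas 2.3.3 and scipy 1.17.1 were used.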

Additional observations from a re-analysis of the deposited data

How the results depend on the processing

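Both HITS-CLIP controls held 0 member sites, so no alternative could turn the sign of a sum of sites against them. The receptor difference was 6.5 sites without sites of 25 nt or less and 3 among sites above the median score, and the receptor minus particle difference 3.08 and 1.5 sites per gene. That median was 6.36, and every HITS-CLIP site of SRPRA scored lower, at 4.05 to 5.37. The 3 and the 1.5 therefore came from SRPRB alone. This cutoff sets scores of different mRNAs side by side, and these may not share a scale. The particle difference of 1 site fell to 0 among sites above the median score. Leaving out 1 library gave 5 to 8 receptor sites, 1 particle site in each case and a difference of 2.33 to 3.83 sites per gene. With the replicate block, pairing libraries by number, the differences remained 6.5, 1 and 3.08, with an exact sign-flip p = 0.5, the smallest that 2 pairs allow; the labels do not say that the numbers pair libraries. Members with HITS-CLIP sites numbered 2 in both replicates, 4 in either replicate and 3 in each single replicate. Of all 20056 protein-coding genes, 6.57% had a site in both, and 1858 and 1698 had one in replicates 1 and 2. The share with a site in either replicate was not counted over all genes. The PAR-CLIP difference of 4.17 sites per gene between receptor and particle was 2.4 without SRP19, 1140.7 as covered nt, -0.072 per 1000 nt without SRP19 and 0.767 per 1000 nt with SRP19 as 0, so by density its sign depends on SRP19. The 2.4 and 0.767 were added after seeing the data. Of the member sites, 66.7% overlapped the other replicate at 1 nt and 53.3% at 50% of each site.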
